A study of Mus musculus with 6 samples.

Results

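Described here are 40 genes of endoplasmic reticulum (ER) stress, ER chaperones and the integrated stress response, of 23107 genes in the deposited table. These genes were chosen by name, with earlier results of these data known. They were measured by RNA sequencing in 3 libraries of myeloid cells from gliomas carrying mutant IDH1 (mIDH1) and 3 from gliomas carrying wild-type IDH1 (wtIDH1). The mice were of the C57BL/6 strain, and in both groups the cells positive for CD11b and Gr-1 were sorted after Percoll enrichment. IDH1 oxidises isocitrate in the cytosol, and the mutant enzyme of gliomas produces hydroxyglutarate instead. The labels give neither the tumour model, the exact IDH1 mutation and any other tumour alleles, nor the age of the mice or whether a library came from 1 animal or several. All 40 genes had counts in every library and passed the filter on low counts: 15 in the PERK-ATF4 group, 12 in the IRE1-XBP1 group with ER-associated degradation (ERAD), and 13 in the group of ATF6 and ER chaperones.

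The unfolded protein response reads the load of unfolded protein in the ER through the membrane sensors PERK, IRE1 and ATF6. PERK, like its relatives HRI and GCN2, phosphorylates the translation factor eIF2 alpha. Translation then falls while that of ATF4 rises, and ATF4 switches on genes of amino acid supply, redox control and cell death. IRE1 removes a short intron from Xbp1 mRNA, and the spliced form encodes a factor that raises ERAD and chaperone genes. ATF6 is cut in the Golgi to release a factor that raises chaperone genes. In tumour myeloid cells this response is known to shape lipid handling and cytokine output. A count per gene shows neither Xbp1 splicing nor eIF2 alpha phosphorylation nor the ATF4 protein, so what follows concerns mRNA levels only.

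Many chaperone genes carry an ER stress response element (ERSE) before their start, which ATF6 and XBP1 bind together with the CCAAT factor NF-Y. It reads CCAAT, 9 bases of any kind, then CCACG. It was searched on both strands of RefSeq promoters of build GRCm38.p6, from 250 bases before to 50 after the start. Of the 40 genes, 35 had a promoter in that table. Atf6, Derl1, Hyou1, Manf and Ppp1r15b were not in it. An exact ERSE was found in 8 of the 35 (22.9%), and in 37 of all 27025 genes of the table (0.137%). It lay in 6 of 10 genes of the ATF6 and chaperone group, in 2 of 11 of the IRE1-XBP1 and ERAD group, and in none of 14 of the PERK-ATF4 group. The genes were chosen by name for these pathways, so these shares are not independent of that choice. The matches follow, because the genes that carry them are among the best known targets of ATF6 and XBP1 and their levels are compared further on. Each is read along the gene, capitals mark CCAAT and CCACG of the element, and CGTGG before ATTGG is the element on the other strand.
Hspa5, chr2:34772015-34772053, + strand: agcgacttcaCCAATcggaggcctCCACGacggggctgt
Calr, chr8:84847065-84847103, - strand: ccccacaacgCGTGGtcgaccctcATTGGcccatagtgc
Hsp90b1, chr10:86705628-86705666, - strand: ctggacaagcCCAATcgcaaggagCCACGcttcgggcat
Hsp90b1, chr10:86705523-86705561, - strand: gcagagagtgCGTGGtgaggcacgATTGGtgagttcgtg
Canx, chr11:50325790-50325828, - strand: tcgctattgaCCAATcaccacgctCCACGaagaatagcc
Pdia6, chr12:17266481-17266519, + strand: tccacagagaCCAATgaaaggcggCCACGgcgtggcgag
Creld2, chr15:88819510-88819548, + strand: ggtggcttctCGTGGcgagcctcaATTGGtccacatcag
Dnajc3, chr14:118937817-118937855, + strand: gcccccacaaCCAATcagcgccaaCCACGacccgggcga
Syvn1, chr19:6046522-6046560, + strand: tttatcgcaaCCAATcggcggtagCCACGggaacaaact

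ATF4 binds the C/EBP-ATF response element, searched here as TGATGNAAN. Read on the other strand this pattern can hold TTGCATCA, so the searches overlap. Also searched in the same way were TTGCATCA alone, the cyclic AMP element TGACGTCA, the unfolded protein response core TGACGTGG, and CCACG, which is also the end of ERSE and lies, read on the other strand, within the letters CGTGG of TGACGTGG. TGATGNAAN was found in 3 of 14 genes of the PERK-ATF4 group (Asns, Chac1 and Trib3), in Herpud1 of the ERAD group, and in 4.50% of all genes of the table. TTGCATCA was found in Chac1 and Herpud1, and in 1.03% of all genes. TGACGTCA was found in Ppp1r15a and in 2.03% of all genes, TGACGTGG in none of the 35 and in 0.714% of all genes, and CCACG in 28 of the 35 (80.0%) and in 35.5% of all genes. The sites before the starts of Chac1, Asns, Herpud1 and Ppp1r15a are shown because the first 2 are classical ATF4 targets and Ppp1r15a had the smallest p of the 40 genes. Capitals mark the pattern.
Chac1, chr2:119351038-119351066, + strand: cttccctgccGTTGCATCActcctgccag
Asns, chr6:7693214-7693242, - strand: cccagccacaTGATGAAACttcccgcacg
Herpud1, chr8:94386306-94386334, + strand: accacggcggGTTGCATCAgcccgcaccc
Ppp1r15a, chr7:45526269-45526290, - strand: gcctctccggTGACGTCAgcac
A match describes the letters in this window and was not tested as a binding site.

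These genes did not move together between the tumour genotypes. In mIDH1 libraries 3 of the 40 were higher (Phgdh, Dnajb9 and Canx) and 1 was lower (Ppp1r15a), by edgeR's quasi-likelihood test with Benjamini-Hochberg adjustment over 12950 genes and a threshold of 0.05. That is 10% of the 40 genes, close to the 8.17% called among all genes tested (2.78% as higher, 5.39% as lower). The median log2 fold change, mIDH1 minus wtIDH1, was 0.12 over the 40 genes and 0.06 over all genes tested. The counts of the 40 genes together made up 8655 to 9897 CPM (a gene's share of its library's counts, scaled by TMM factors) in mIDH1 libraries and 8752 to 9984 CPM in wtIDH1 libraries, so that the ranges overlapped. For 29 of the 40 genes the 95% interval of the fold change lay within 2-fold in both directions, and for 28 it included no change. Those with wider intervals were mostly genes of the PERK-ATF4 group, where 6 of 15 intervals lay within 2-fold, against 11 of 12 and 12 of 13 in the other groups. The groups did not overlap in 16 of the 40 genes, 9 with higher and 7 with lower levels in mIDH1, or 40% of them, where 28.9% of all genes tested did not overlap (14% higher and 14.9% lower). The count of 4 genes was 1 without mIDH1 replicate 2, 2 without wtIDH1 replicate 1, 0 without wtIDH1 replicate 2 and 1 without wtIDH1 replicate 3. In bulk libraries fewer cells of a type and less RNA per cell cannot be told apart.

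**Figure D1:**
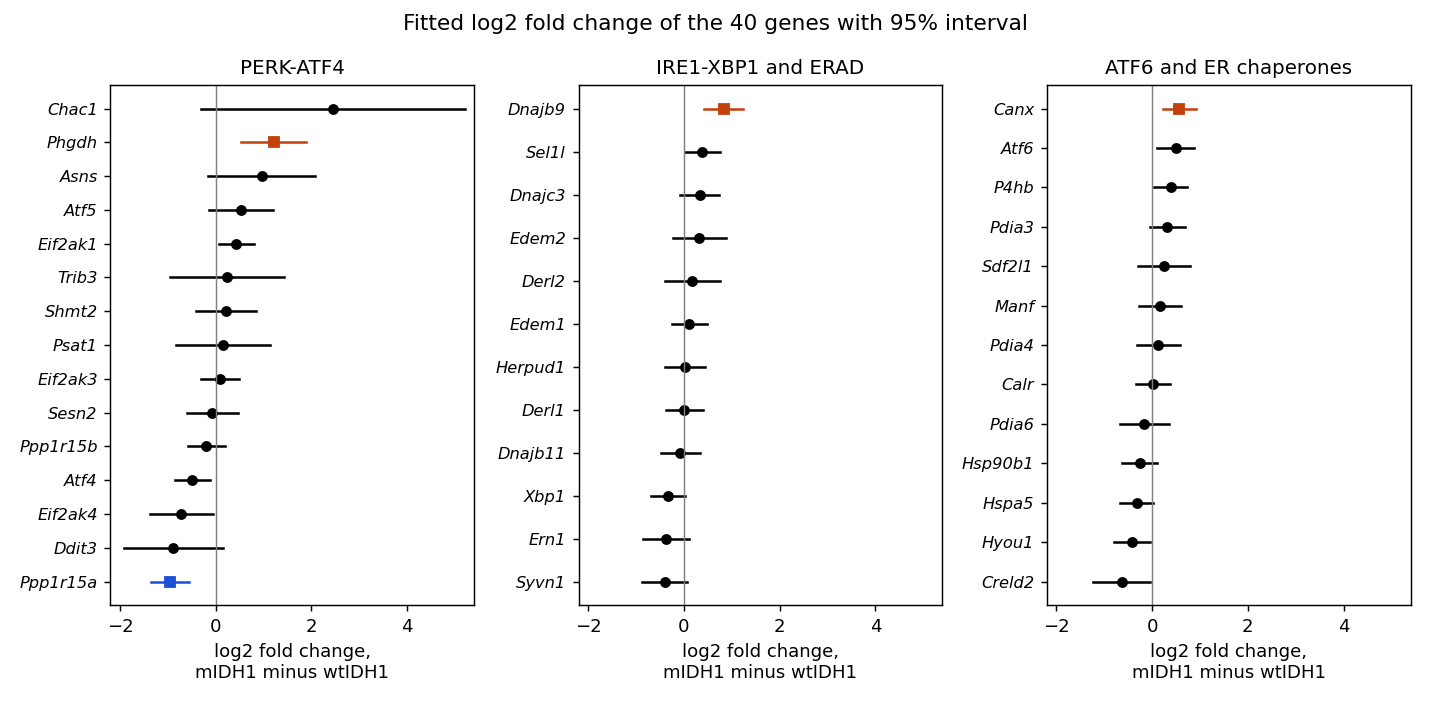
Fitted log2 fold change (x axis, mIDH1 minus wtIDH1) of each of the 40 genes (y axis) in the 3 groups, with the 95% interval as a bar. Squares mark the 4 genes past the threshold, Phgdh, Dnajb9 and Canx above 0 and Ppp1r15a below it, and most other intervals cross 0.

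The libraries held 19728205 to 35093265 counts in mIDH1 and 20502715 to 27750515 in wtIDH1, where 3 counts, the number a count of 0 still allows, equal 0.0855 to 0.152 CPM. Replicates differed beyond sampling noise, and since the labels do not say that they came from separate animals, p-values reflect library-to-library spread only, which may be technical. Neutrophils carry Gr-1, and S100a8, 1 of the 11 neutrophil markers listed, was at 9.37 to 11.3 CPM in mIDH1 and 2.54 to 7.21 CPM in wtIDH1. The sum of 10 macrophage markers was 7797 to 15056 CPM in mIDH1 and 4648 to 5876 CPM in wtIDH1 (6 of 10 higher, none lower), and that of 11 neutrophil markers was 445 to 510 CPM in mIDH1 and 337 to 418 CPM in wtIDH1 (3 of 10 tested higher, 1 lower). Monocyte markers summed to 2982 to 4515 CPM in mIDH1 and 1494 to 2619 CPM in wtIDH1, with 1 of 7 higher and 2 lower. B and plasma cell markers, whose cells use XBP1 heavily, summed to 35.2 to 128 CPM in mIDH1 and 48.5 to 78.1 CPM in wtIDH1, with Tnfrsf17 at 0 in all libraries and Igj higher (4.09 to 19.6 CPM in mIDH1 against 1.75 to 3.00 CPM in wtIDH1). Plasmacytoid dendritic cell markers summed to 116 to 155 CPM in mIDH1 and 160 to 207 CPM in wtIDH1 (1 of 4 tested lower), T and NK markers to 356 to 648 CPM in mIDH1 and 267 to 429 CPM in wtIDH1 (1 of 8 higher), and glioma and neural markers to 87.2 to 96.7 CPM in mIDH1 and 91.2 to 95.4 CPM in wtIDH1 (1 of 5 tested higher). The part of these markers in the results on the 40 genes was not tested.

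Levels per length, in TMM-scaled CPM per kilobase of annotated exon (GENCODE M21, build GRCm38), differed widely among the 40 genes. Calr, the gene of the lectin chaperone calreticulin, ranked first in both groups, at 495 CPM per kilobase in mIDH1 and 485 in wtIDH1. Hspa5, which encodes the chaperone BiP, ranked second, at 246 CPM per kilobase in mIDH1 and 308 in wtIDH1. P4hb, Hsp90b1 and Pdia3 took the next ranks in mIDH1, at 225, 222 and 212 CPM per kilobase. In wtIDH1 libraries they stood at 172, 266 and 170 CPM per kilobase, and Ppp1r15a at 191. Chac1 ranked last in both groups, at 1.74 CPM per kilobase in mIDH1 and 0.317 in wtIDH1. The median level of a gene was 81.8 CPM per kilobase in mIDH1 and 74.7 in wtIDH1 in the ATF6 and chaperone group, 25.1 in mIDH1 and 19.3 in wtIDH1 in the IRE1-XBP1 and ERAD group, and 11.2 in mIDH1 and 8.22 in wtIDH1 in the PERK-ATF4 group.

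In the PERK-ATF4 group 1 gene fell in mIDH1, Ppp1r15a, and 1 rose, Phgdh, of 15 tested (13.3%, where 8.17% of all genes were called). The group's median log2 fold change was 0.15, with 9 positive and 6 negative values. The sensors and the central factors ATF4 and CHOP did not pass.

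None of the kinases that phosphorylate eIF2 alpha passed. Eif2ak3, the gene of PERK (chromosome 6, 70844515 to 70905245), was at 85.2, 108 and 82.0 CPM in mIDH1 libraries and at 87.6, 92.3 and 78.8 CPM in wtIDH1 libraries. Its groups overlapped, and the log2 fold change was 0.09 (95% interval -0.31 to 0.48, adjusted p = 0.834). A transcript of the opposite strand shares 8.05% of its exon bases. Eif2ak1 encodes HRI, the kinase that senses low heme and mitochondrial stress, and stood at 126, 115 and 137 CPM in mIDH1 and 90.6, 91.4 and 98.1 CPM in wtIDH1. Every mIDH1 library lay above every wtIDH1 library, yet the log2 fold change of 0.43 ± 0.16 (SE) did not pass (adjusted p = 0.134). Annotated exons of Ankrd61 and Aimp2 on the opposite strand cover 11.6% of the exon bases of Eif2ak1, and with libraries that do not mark strand their reads cannot be told apart there. Eif2ak4, the gene of GCN2, which senses uncharged tRNA, was at 31.7, 23.1 and 57.2 CPM in mIDH1 and 56.2, 54.7 and 73.0 CPM in wtIDH1. Only mIDH1 replicate 3 reached the wtIDH1 range. The log2 fold change of -0.72 ± 0.30 (SE) did not pass (adjusted p = 0.178), but without mIDH1 replicate 3 it was -1.16 and passed (adjusted p = 0.0128).

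Atf4 and its partner in cell death had lower means in mIDH1 without passing. Atf4 (chromosome 15, 80255184 to 80257541) was at 196, 186 and 192 CPM in mIDH1 libraries and at 234, 310 and 260 CPM in wtIDH1 libraries. The groups did not overlap, and the mIDH1 libraries lay close together, but the log2 fold change of -0.49 ± 0.17 (SE) missed the threshold (95% interval -0.84 to -0.13, adjusted p = 0.0937). Ddit3 encodes CHOP, a factor that ATF4 induces and that promotes death under lasting stress. It was at 7.21, 4.81 and 8.56 CPM in mIDH1 and at 9.98, 19.9 and 8.27 CPM in wtIDH1, so that the groups overlapped and wtIDH1 replicate 2 alone was high (log2 fold change -0.89, 95% interval -1.93 to 0.14, adjusted p = 0.302). Atf5, a related factor of the mitochondrial stress response, was at 22.9 ± 2.79 CPM in mIDH1 and 15.8 ± 3.82 CPM in wtIDH1 (SD, n = 3 each, adjusted p = 0.344 by edgeR). Its groups did not overlap (log2 fold change 0.54), and 8.23% of its exon bases are shared with genes of the opposite strand. Trib3, a pseudokinase gene that ATF4 and CHOP induce, was at 7.34 ± 2.70 CPM in mIDH1 and 6.22 ± 2.58 CPM in wtIDH1 (SD, n = 3 each, adjusted p = 0.852 by edgeR).

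Ppp1r15a (chromosome 7, 45522916 to 45526268, minus strand) encodes GADD34, the stress-induced subunit that brings protein phosphatase 1 to eIF2 alpha and so ends the block on translation. It fell to 273, 328 and 266 CPM in mIDH1 libraries, against 494, 686 and 502 CPM in wtIDH1 libraries. The highest mIDH1 library stayed below the lowest wtIDH1 library (log2 fold change -0.96 ± 0.18 SE, 1.94-fold lower, adjusted p = 0.00811). The adjusted p was 0.0584 without wtIDH1 replicate 2. Its constitutive counterpart Ppp1r15b, the gene of CReP, was at 480, 531 and 384 CPM in mIDH1 and at 453, 581 and 563 CPM in wtIDH1, and these groups overlapped (log2 fold change -0.20, 95% interval -0.58 to 0.19, adjusted p = 0.584). A transcript of the opposite strand shares 11.4% of the exon bases of Ppp1r15b. The ratio of Ppp1r15a to Ppp1r15b within a library does not depend on how libraries are scaled. It was 0.568, 0.618 and 0.693 in mIDH1 and 1.09, 1.18 and 0.891 in wtIDH1, without overlap. This ratio and those of Dnajb9 and Canx below were chosen after the values had been seen and were given no test.

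Ppp1r15a is also an early response gene. Of 18 immediate early genes, which dissociation and sorting can induce, 6 fell and none rose (33.3%, where 8.17% of all genes were called and 5.39% were lower). This list was chosen with earlier results of these data known, so its share is not independent of them. The other 12 did not pass, among them Fos at a log2 fold change of -0.31 and Egr1 and Egr3 at 0.32 and 0.26, named after their values were seen. The sum of the 18 was 9450 to 13327 CPM in mIDH1 and 14379 to 19269 CPM in wtIDH1. The leading genes by p were Nr4a2, Fosb, Egr2 and Nr4a1, with log2 fold changes of -2.60, -1.16, -1.63 and -1.47 (adjusted p = 0.000113, 0.00209, 0.00217 and 0.00963), and 3 genes of the list passed without wtIDH1 replicate 2. The part of dissociation in the value of Ppp1r15a was not tested.

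Among the 4 genes of serine, folate and asparagine metabolism in this group (Phgdh, Psat1, Shmt2 and Asns), Phgdh alone passed. Phgdh encodes the enzyme that opens serine synthesis from glycolysis (chromosome 3, 98313170 to 98339990). It rose to 23.4, 28 and 29.1 CPM in mIDH1 libraries, against 13.7, 8.35 and 12.8 CPM in wtIDH1 libraries. All mIDH1 libraries were higher (log2 fold change 1.21 ± 0.32 SE, 2.31-fold, adjusted p = 0.0341). The call was lost without mIDH1 replicate 2 or 3 or any wtIDH1 library (adjusted p of 0.0605 to 0.150). Psat1, the next enzyme of the pathway, was at 24.3, 9.69 and 38.2 CPM in mIDH1 and at 33.2, 16.8 and 14.8 CPM in wtIDH1. The libraries of each group spread more than the groups differed (log2 fold change 0.15, adjusted p = 0.892). Shmt2, which moves carbon from serine to folate in mitochondria, was at 34.7 ± 9.42 CPM in mIDH1 and 29.9 ± 7.20 CPM in wtIDH1 (SD, n = 3 each, adjusted p = 0.727 by edgeR).

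Asns, the asparagine synthetase gene, was at 22.8, 23.7 and 15.6 CPM in mIDH1 and at 3.05, 18.6 and 10.1 CPM in wtIDH1. Its mean was higher in mIDH1, but wtIDH1 replicate 2 lay within the mIDH1 range (log2 fold change 0.96 ± 0.52 SE, adjusted p = 0.301). Chac1, whose enzyme degrades glutathione, was at 2.79, 2.05 and 3.71 CPM in mIDH1 libraries and at 1.20, 0.304 and 0.0504 CPM in wtIDH1 libraries. All mIDH1 libraries were higher, while wtIDH1 replicate 3 lay under the level that 3 counts give there (0.146 CPM), and the test did not pass (95% interval of the log2 fold change -0.31 to 5.20, adjusted p = 0.288). Sesn2, a stress-induced brake on mTORC1, was at 44.9 ± 12.7 CPM in mIDH1 and 47.2 ± 7.23 CPM in wtIDH1 (SD, n = 3 each, adjusted p = 0.908 by edgeR).

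**Figure D2:**
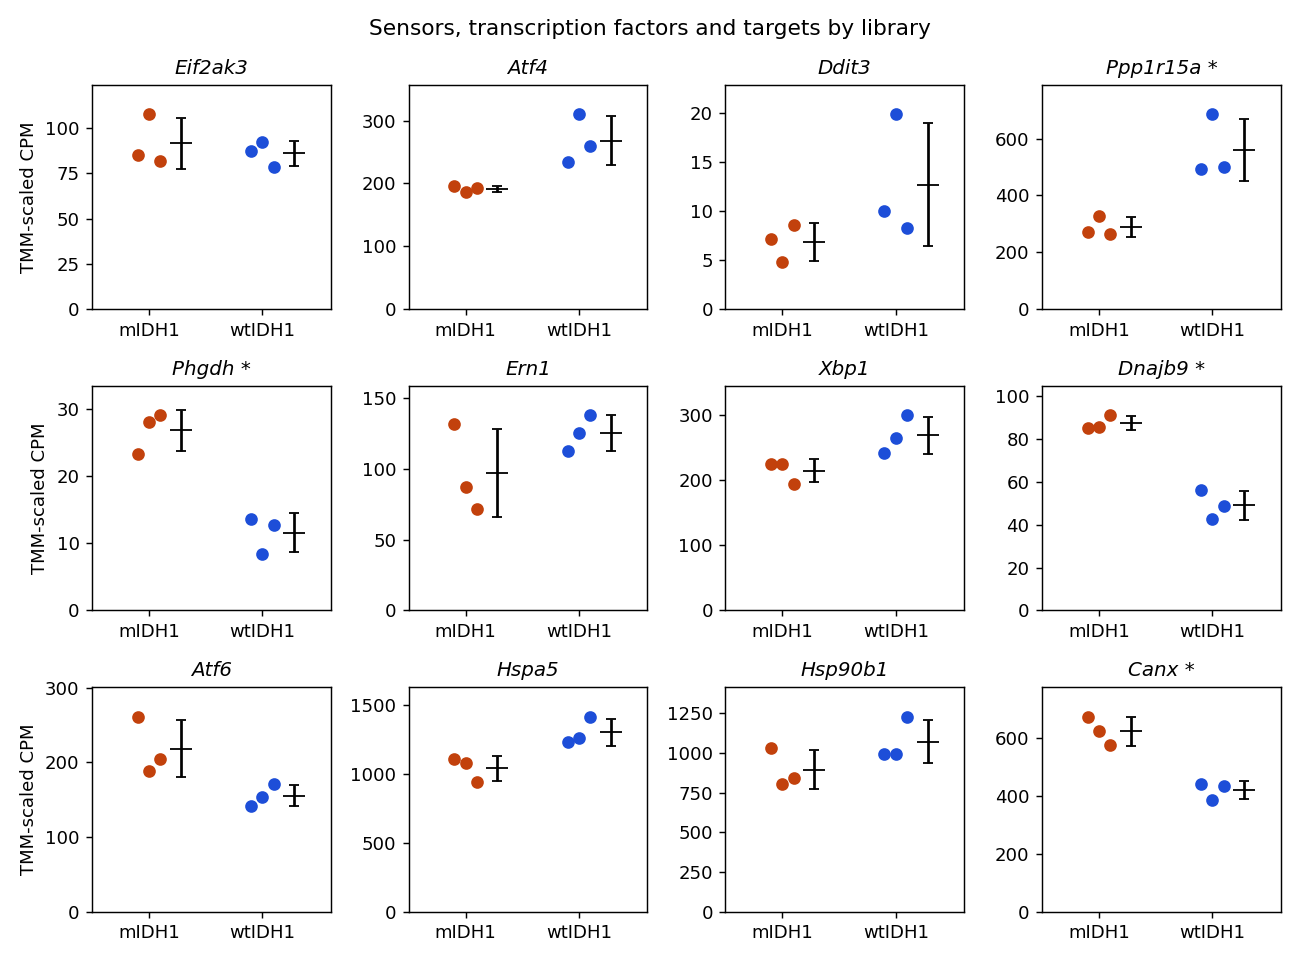
Level of 12 sensors, factors and targets in TMM-scaled CPM (y axes start at 0) in each mIDH1 and wtIDH1 library (points), with the group mean and SD to the right (bar, n = 3). Asterisks mark genes past the threshold, where the points of the groups lie apart, while Eif2ak3, Ddit3, Ern1 and Hsp90b1 overlap. The points of Atf4, Xbp1, Atf6 and Hspa5 also lie apart, but these genes did not pass.

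In the IRE1-XBP1 and ERAD group 1 of 12 genes rose, Dnajb9, and none fell (8.33%, where 8.17% of all genes were called). The median log2 fold change was 0.07, and 11 of 12 genes had intervals within 2-fold. The sensor gene and Xbp1 had lower means in mIDH1, the opposite sign to Dnajb9, which is among their best known targets.

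Ern1, the gene of IRE1 alpha (chromosome 11, 106394650 to 106487852), was at 132, 87.4 and 71.8 CPM in mIDH1 and at 113, 125 and 138 CPM in wtIDH1. The groups overlapped through mIDH1 replicate 1 (log2 fold change -0.37, 95% interval -0.84 to 0.11, adjusted p = 0.363). Xbp1 (chromosome 11, 5520659 to 5525893) was at 225, 224 and 194 CPM in mIDH1 and at 242, 265 and 300 CPM in wtIDH1. Every mIDH1 library was below every wtIDH1 library, by a margin that did not pass (log2 fold change -0.32, 95% interval -0.68 to 0.03, adjusted p = 0.269).

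Dnajb9 (chromosome 12, 44205559 to 44210326) encodes ERdj4, a co-chaperone of BiP that holds IRE1 inactive and takes part in ERAD. It rose to 85.3, 85.5 and 91.0 CPM in mIDH1 libraries, against 56.2, 42.7 and 48.6 CPM in wtIDH1 libraries. The groups were well apart (log2 fold change 0.83 ± 0.19 SE, 1.78-fold, adjusted p = 0.0186). The adjusted p was 0.0524, 0.111 and 0.084 without mIDH1 replicate 2, wtIDH1 replicate 2 and wtIDH1 replicate 3. Relative to Hspa5 in the same library, Dnajb9 stood at 0.0770, 0.0795 and 0.0971 in mIDH1 and at 0.0456, 0.0339 and 0.0343 in wtIDH1, without overlap.

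The other co-chaperones did not pass. Dnajc3, which encodes p58IPK, an ER co-chaperone also known to restrain PERK, was at 105, 131 and 136 CPM in mIDH1 and at 82.4, 104 and 110 CPM in wtIDH1 (log2 fold change 0.33 ± 0.18 SE, adjusted p = 0.333), with overlap through mIDH1 replicate 1. Dnajb11, the gene of the co-chaperone ERdj3, had a log2 fold change of -0.07 (95% interval -0.48 to 0.33).

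The HRD1 complex moves misfolded proteins out of the ER, and none of its genes passed. Sel1l, the adaptor of the complex, was at 192, 173 and 219 CPM in mIDH1 and at 144, 135 and 169 CPM in wtIDH1. Syvn1, which encodes the ligase HRD1 itself, was at 47.1, 45.3 and 34.7 CPM in mIDH1 and at 50.6, 52.0 and 65.7 CPM in wtIDH1. Neither gene's groups overlapped, with Sel1l above and Syvn1 below the wtIDH1 libraries, and neither passed (log2 fold changes of 0.39 and -0.40, adjusted p = 0.201 and 0.311). The mannose-trimming genes Edem1 and Edem2, the membrane channel genes Derl1 and Derl2, and Herpud1, which scaffolds the complex, overlapped between groups, with log2 fold changes of 0.12, 0.32, 0.01, 0.18 and 0.03 (adjusted p of 0.522 to 0.981). Edem1 was at 484, 402 and 408 CPM in mIDH1 and 346, 416 and 431 CPM in wtIDH1.

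In the group of ATF6 and ER chaperones 1 of 13 genes rose, Canx, and none fell (7.69%, where 8.17% of all genes were called). The median log2 fold change was 0.13, with 8 positive and 5 negative values. Without overlap between groups, Atf6, Canx and P4hb had higher levels in mIDH1, and Hspa5, Hyou1 and Creld2 lower levels.

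Atf6 (chromosome 1, 170704674 to 170867771) was at 261, 189 and 205 CPM in mIDH1 libraries and at 142, 153 and 170 CPM in wtIDH1 libraries. The groups did not overlap, and the log2 fold change of 0.49 ± 0.18 (SE) did not pass (adjusted p = 0.114). Hspa5 (chromosome 2, 34771970 to 34777547), whose BiP protein binds the sensors and is the standard readout of this response, was at 1107, 1075 and 938 CPM in mIDH1 and at 1231, 1259 and 1416 CPM in wtIDH1. All mIDH1 libraries were lower, but the difference did not pass (log2 fold change -0.32, 95% interval -0.67 to 0.02, adjusted p = 0.251). Hsp90b1, the gene of the ER heat shock protein GRP94, was at 1034, 806 and 842 CPM in mIDH1 and at 993, 995 and 1230 CPM in wtIDH1, with overlap through mIDH1 replicate 1 (log2 fold change -0.26, adjusted p = 0.411), and 10.3% of its exon bases are shared with a transcribed pseudogene of the opposite strand. Hyou1, a large chaperone and exchange factor of BiP, was at 211, 153 and 157 CPM in mIDH1 and at 221, 233 and 244 CPM in wtIDH1. Creld2, a secreted isomerase-like protein gene, was at 16.7, 24.7 and 20.8 CPM in mIDH1 and at 27.9, 29.8 and 39.0 CPM in wtIDH1. Both had all mIDH1 libraries below the wtIDH1 libraries, and neither passed (log2 fold changes of -0.42 and -0.64, adjusted p = 0.171 and 0.190).

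Canx (chromosome 11, 50293961 to 50325673) encodes calnexin, the membrane-bound lectin chaperone of new glycoproteins. It rose to 676, 624 and 575 CPM in mIDH1 libraries, against 444, 386 and 435 CPM in wtIDH1 libraries. The groups were apart (log2 fold change 0.57 ± 0.16 SE, 1.48-fold, adjusted p = 0.0444), and the call was lost without mIDH1 replicate 1 or 2 or any wtIDH1 library (adjusted p of 0.0965 to 0.201). Calr, its soluble counterpart, was at 1651, 1301 and 1324 CPM in mIDH1 and at 1293, 1427 and 1474 CPM in wtIDH1 (log2 fold change 0.03, 95% interval -0.33 to 0.38). The ratio of Canx to Calr was 0.409, 0.480 and 0.435 in mIDH1 libraries and 0.343, 0.270 and 0.295 in wtIDH1 libraries, without overlap.

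P4hb, the gene of protein disulfide isomerase, was at 664, 585 and 682 CPM in mIDH1 and at 493, 460 and 522 CPM in wtIDH1. Its groups did not overlap, and the log2 fold change of 0.39 ± 0.16 (SE) did not pass (adjusted p = 0.161). Pdia3, the isomerase that works with calnexin and calreticulin, overlapped through mIDH1 replicate 2 and had a log2 fold change of 0.32 (adjusted p = 0.291). The isomerase genes Pdia4 and Pdia6, the BiP-linked Sdf2l1, and Manf, the gene of a secreted survival factor, overlapped between groups, with log2 fold changes of 0.13, -0.16, 0.25 and 0.16 (adjusted p of 0.620 to 0.778), and Manf shares 8.85% of its exon bases with the opposite strand.

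**Figure D3:**
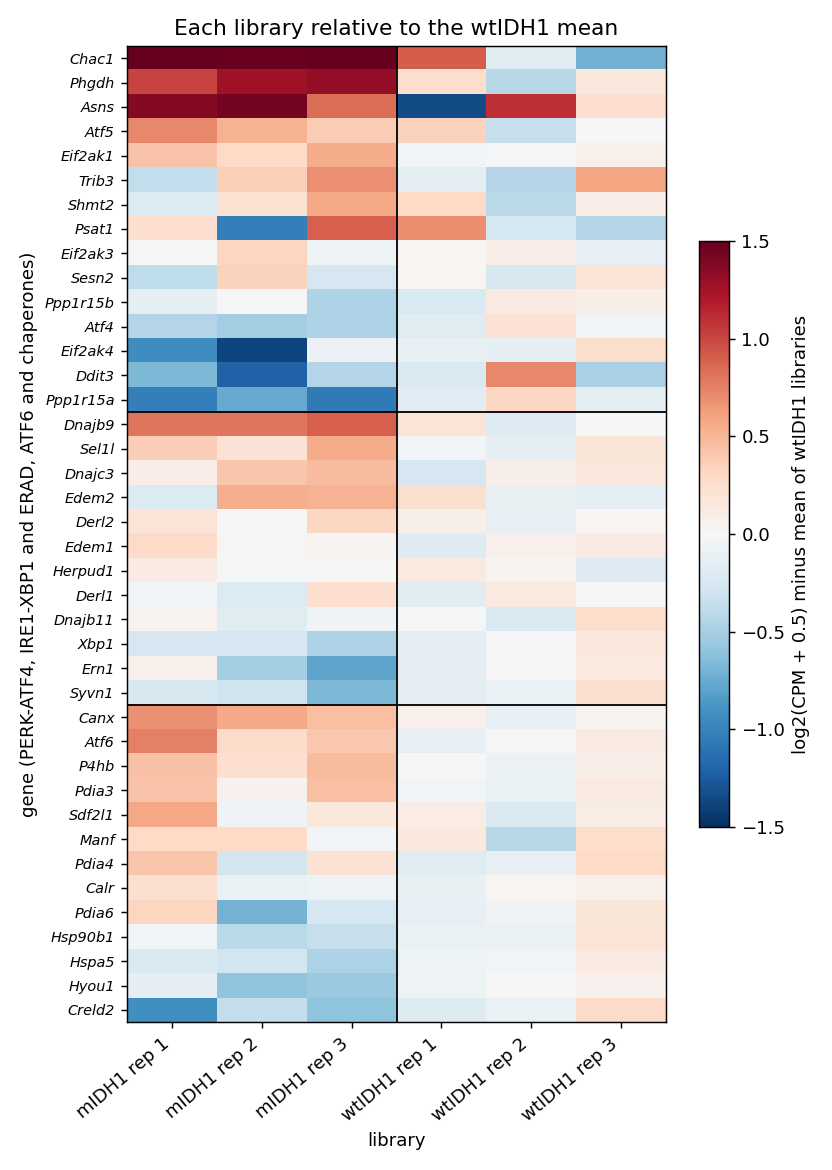
Log2 of CPM + 0.5 in each library minus the mean of the wtIDH1 libraries (colour, limited to 1.5 in size) for the 40 genes (rows, lines between the 3 groups) in mIDH1 and wtIDH1 libraries (columns). In each group of genes the mIDH1 libraries are red for some rows and blue for others, and Chac1 exceeds the colour limit.

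The 8 genes with an exact ERSE did not share a direction. Their log2 fold changes ran from -0.64 to 0.57 with a median of -0.21, 3 positive and 5 negative, and 1 of the 8 (Canx) passed. The 27 genes that had a promoter without this element had a median of 0.18. Hspa5 and Canx both carry the element, with log2 fold changes of -0.32 and 0.57. Their 250 bases before the RefSeq start are shown so that these promoters can be compared, again with CCAAT and CCACG of the element in capitals.
Hspa5, chr2:34771840-34772089, + strand: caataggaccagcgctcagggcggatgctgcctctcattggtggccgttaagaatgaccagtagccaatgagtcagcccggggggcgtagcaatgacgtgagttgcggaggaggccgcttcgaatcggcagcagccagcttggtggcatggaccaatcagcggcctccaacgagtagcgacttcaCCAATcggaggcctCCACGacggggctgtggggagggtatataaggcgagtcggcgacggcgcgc
Canx, chr11:50325674-50325923, - strand: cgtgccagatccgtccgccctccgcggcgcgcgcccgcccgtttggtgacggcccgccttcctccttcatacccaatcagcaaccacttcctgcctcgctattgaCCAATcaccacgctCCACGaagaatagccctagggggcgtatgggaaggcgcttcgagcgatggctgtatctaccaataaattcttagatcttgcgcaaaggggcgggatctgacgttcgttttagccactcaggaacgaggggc
The element starts 65 bases before the start of Hspa5 and 145 bases before that of Canx, and G and C make up 62.4% and 59.6% of these bases.

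Of 24 further targets of the integrated stress response, 3 rose and 1 fell (16.7%, where 8.17% of all genes were called), and the median log2 fold change was 0.29. Atf3, a stress factor that ATF4 induces and that is also an early response gene, fell to 313, 329 and 218 CPM in mIDH1, against 807, 1166 and 947 CPM in wtIDH1 (log2 fold change -1.76 ± 0.21 SE, adjusted p = 0.000415). Jdp2, a repressor related to Atf3, rose to 104, 80.1 and 101 CPM in mIDH1, against 47.9, 59.1 and 55.8 CPM in wtIDH1 (adjusted p = 0.0223). Cth, which makes cysteine from cystathionine, was at 5.17, 11 and 8.47 CPM in mIDH1 and at 0.139, 1.29 and 0 CPM in wtIDH1 (adjusted p = 0.0478). Vldlr, a lipoprotein receptor gene, was at 3.39, 6.83 and 4.19 CPM in mIDH1 and at 0, 0.0759 and 0.202 CPM in wtIDH1 (adjusted p = 0.0184). Vldlr was near the detection limit in all wtIDH1 libraries and Cth in wtIDH1 replicates 1 and 3, and neither was called by limma voom. Without a library the adjusted p reached 0.155 for Cth, 0.0864 for Jdp2 and 0.0901 for Vldlr, and the number of calls in this list was 2 without mIDH1 replicate 2, wtIDH1 replicate 1 or wtIDH1 replicate 2.

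None of 12 genes of the eIF2 machinery passed edgeR's test, while 3 had an unadjusted p under 0.05. DESeq2 called 1, as lower in mIDH1, and limma voom none. The smallest p values belonged to Eif2ak2, the gene of the interferon-induced kinase PKR (156, 96.0 and 67.1 CPM in mIDH1, 138, 210 and 219 CPM in wtIDH1, adjusted p = 0.0902), and to Ppp1cc, Eif2s2 and Eif2s1, with log2 fold changes of 0.47, 0.49 and 0.35. Without mIDH1 replicate 1 the number of calls was 1, again as lower.

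Of 26 further genes of ERAD and entry into the ER 1 rose, Spcs3 of the signal peptidase (137, 84.4 and 98.0 CPM in mIDH1 against 59.4, 67.2 and 64.0 CPM in wtIDH1, adjusted p = 0.0437). Erlec1 and Ssr1 had small p values without passing (log2 fold changes of 0.76 and 0.43). Of 25 further genes of ER folding 1 rose, Dnajc10, whose product reduces disulfides (149, 116 and 122 CPM in mIDH1 against 74.8, 78.3 and 96.0 CPM in wtIDH1, adjusted p = 0.0497). Ostc, Txndc5 and Mbtps2, the gene of the protease that releases ATF6, followed (log2 fold changes of 0.73, 0.61 and 1.12). These lists had medians of 0.19 and 0.18, and 3.85% and 4% of their genes were called, where 8.17% of all genes were. Their groups did not overlap in 12 of 26 genes (46.2%, 11 of them higher in mIDH1) and in 10 of 25 (40%, 9 of them higher), where 28.9% of all genes did not overlap and 14% were higher. Spcs3 was not called by limma voom or without mIDH1 replicate 1 or any wtIDH1 library, nor Dnajc10 with median-ratio factors or without mIDH1 replicate 1 or 2 or any wtIDH1 library. The folding list had 0 calls without mIDH1 replicate 1 or 2 or wtIDH1 replicate 2 or 3, and 2 without mIDH1 replicate 3.

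Heat shock genes of the cytosol and mitochondria had mostly negative values. The list includes Hspa9, Hspd1, Hspe1 and Trap1, whose products work in mitochondria. Of 18 genes 3 fell and none rose (16.7%, where 8.17% of all genes were called and 5.39% were lower). Values above 0 were found for 2 of the 18, where 53.4% of all genes tested had one, and the median log2 fold change was -0.31. This list too was chosen with earlier results known, so these shares are not independent of the data. Hsf1, the master factor of the heat shock response, fell to 11.8, 7.20 and 8.32 CPM in mIDH1, against 28.4, 20.8 and 26.9 CPM in wtIDH1 (log2 fold change -1.47 ± 0.34 SE, adjusted p = 0.0193). Dnaja1, a co-chaperone of HSP70, had a log2 fold change of -0.89 (adjusted p = 0.0301). The inducible HSP70 genes Hspa1b and Hspa1a, near-identical copies whose counts are uncertain apart, had log2 fold changes of -2.16 and -1.51 (adjusted p = 0.0304 and 0.0548), with wtIDH1 replicate 1 within the mIDH1 range of both. Neither DESeq2 nor limma voom called Hspa1b. No gene of the list passed without wtIDH1 replicate 2 or 3, with 5 genes at an unadjusted p under 0.05 when all libraries were used. Of the immediate early genes 6 of 18 fell as well, and the part of dissociation was not tested.

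**Figure D4:**
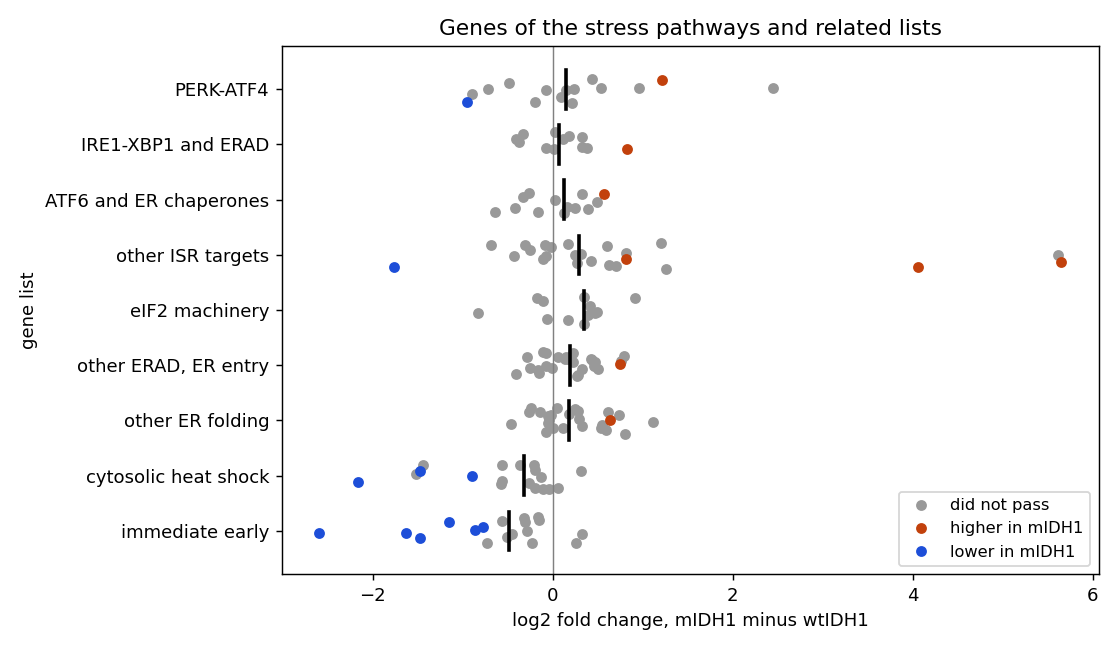
Fitted log2 fold change (x axis, mIDH1 minus wtIDH1) of each tested gene (points) in the 3 groups of the 40 genes and 6 related lists (y axis), with the list median as a black line. Points past the threshold are coloured. The medians lie above 0 for all lists except heat shock and immediate early genes, at -0.31 and -0.48. The list labelled cytosolic heat shock includes mitochondrial chaperones.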

How the data were processed

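Expected counts per gene, 1 column per library and not scaled to library size, were deposited by the authors. HTSeq, Cuffdiff 2.1.1, Bowtie2 2.2.1 and TopHat2 2.0.13 are named with build mm10 in the submitters' processing notes. The role of each tool, its settings and the annotation were not stated there. Per the labels' protocols, RNA was selected by its poly(A) tail and libraries came from a TruSeq mRNA kit, which does not mark strand.

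Values were rounded to whole counts (1.31 to 1.61% per library were not whole within 1e-09) and filtered with filterByExpr (minimum count 10, minimum total 15), which kept 12950 of 23107 genes. Groups were compared by edgeR 4.0.16 (TMM, glmQLFit, glmQLFTest, 4 residual degrees of freedom) in R 4.3.3, two-sided, adjusted by Benjamini-Hochberg over all genes tested. Alternatives included DESeq2 1.42.0 and limma 3.58.1 (voom). The fit was tested on simulated data. Floors cover counting error only.

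The members and lists were chosen with earlier results of these data known. Shares of them called, not overlapping or of 1 sign are therefore not independent of the data. Every library is given for 10 sensors and central factors, and for every member past the threshold plus those of smallest p up to 6 a group. Ppp1r15b, Psat1, Asns, Edem1 and Calr were given by library outside this rule. Of other lists the 4 of smallest p are named, except 1 gene that is not reported here. Gene positions are from GENCODE M21 (GRCm38), promoters from RefSeq (GRCm38.p6).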

Additional observations from a re-analysis of the deposited data

How the results depend on the processing

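Among the 40 genes the same number passed (4; 3 higher, 1 lower) with median-ratio, upper-quartile or total scaling, no filter, a stricter filter, DESeq2, limma voom and robust dispersion. Over all genes 1058 passed, 1610 by DESeq2. The labels do not say that replicate numbers pair the libraries. Same-numbered libraries had correlations of -0.03, 0.03 and -0.05 after group means were removed, which with so few libraries cannot exclude pairing. With the replicate number as a block, 585 genes passed in all, and of the 40 genes 2, of them 1 in the PERK-ATF4 and 0 in the chaperone group. With it the ER folding and ER entry lists each had 0 calls. DESeq2 gave 7 calls among further stress response targets, 1 in the eIF2 list (as did no filter), 2 in ER folding and 2 in ER entry, where limma voom gave 0. ER folding had 2 calls with library totals, upper-quartile factors or no filter, and 0 with median-ratio factors.

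With each library left out, calls ranged from 334 to 1033 over all genes, from 0 to 4 over the 40 genes, from 0 to 2 in the PERK-ATF4 group, from 0 to 1 in the other 2 groups, from 2 to 6 among stress response targets, from 0 to 1 in the eIF2 and ER entry lists, from 0 to 2 in ER folding, from 0 to 3 in heat shock and from 3 to 7 among immediate early genes. The group medians moved by less than the spread between replicates in all settings. That spread, the SD of a library's median log2 CPM within groups, was 0.132 for the 40 genes and 0.345 for the PERK-ATF4 group. It is a spread of levels, not of fold changes, and it exceeds their median log2 fold changes of 0.12 and 0.15. Staying within it therefore does not show that a median or its sign is stable. The sign changed for genes near 0: with 1 library left out, Sesn2 ran from -0.328 to 0.0617, Dnajb11 from -0.188 to 0.0646, Psat1 from -0.35 to 0.60, Derl1 from -0.13 to 0.11, Herpud1 from -0.0650 to 0.102, Calr from -0.0921 to 0.09005, Pdia4 from -0.0225 to 0.304, Eif2ak3 from -0.0440 to 0.162, Pdia6 from -0.473 to 0.0554, Trib3 from -0.0284 to 0.619 and Manf from -0.0283 to 0.292. With library totals Sesn2 was at 0.00104 and Dnajb11 at 0.000438, and with limma voom Psat1 was at -0.0497 and Derl1 at -0.0123. None of these genes passed in any setting. The cause of these changes was not tested. Chac1 had few counts, at 2.05 to 3.71 CPM in mIDH1 and 0.0504 to 1.20 CPM in wtIDH1, which limits what can be seen of it. Trib3, at 4.21 to 9.84 CPM, and Ddit3, at 4.81 to 19.9 CPM, lay above the level of 3 counts (0.0855 to 0.152 CPM) in every library. The intervals of their log2 fold changes were wide, at -0.95 to 1.43 for Trib3 and -1.93 to 0.14 for Ddit3. The reason for this width was not tested.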
